A study of Mus musculus with 12 samples.

Results

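The olfactory bulb of wildtype mice was compared between postnatal day 23 (P23), around weaning, and 4 months of age, when the animals are adult. All wildtype arrays of the series entered the comparison: 3 titled as 4-month wildtype (arrays 3, 9 and 10) and 3 titled as P23 wildtype (arrays 4, 11 and 12), which are 6 of the 12 arrays in all. The other 6 arrays hold bulbs of hGFAP transgenic mice of the same strain, 3 at P23 and 3 at 4 months. Every group is FVB/N, wildtype groups carry no transgene, and no treatment is named for any group. The genotype label of the transgenic mice is hGFAP, and the sources used here do not give the promoter behind that transgene. Total RNA of whole bulb was measured on single-colour expression arrays, and 12422 of the 12488 probe sets are not controls. Of these, 7453 passed a filter on low signal and were tested, and they stood for 5664 genes with 1 symbol each.

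The bulb is the first relay of smell. Sensory axons from the nose end on mitral and tufted cells, and local inhibitory interneurons, most of them granule cells, shape the output. Interneurons keep arriving after birth: neuroblasts made around the lateral ventricle migrate into the bulb, mature there and join its circuits, in greatest number in early life. Oligodendrocytes wrap the output axons in myelin during the weeks after birth, while vessels and their basement membranes are still growing.

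Signals of genes known as markers of bulb cells are given first. No other tissue was measured, so they do not test the tissue label. Calb2 (calretinin, of periglomerular and granule cells) had a mean signal of 34355 at P23, against 31653 in the adult bulb. Th, the dopamine-making enzyme of periglomerular cells, stood at 14328 and 16906, and Reln, the secreted protein reelin of mitral cells, at 20474 and 17928. None of these 3 genes passed the age test, with adjusted p from limma of 0.659, 0.405 and 0.339. Omp, the marker of mature sensory neurons, whose somata lie in the nose and whose axons enter the bulb, was detected at 5810 and 8587. The titles do not say whether an array is 1 animal or a pool, so the spread that p-values rest on is that between these arrays and may be technical.

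Before any result, the scatter of the P23 arrays has to be described. P23 array 4 lay at -4.39 on the first principal component of the wildtype arrays, which holds 32.9 percent of the variance, while P23 arrays 11 and 12 lay at 24.9 and 8.59. The 4-month arrays lay at -11.3, -5.03 and -12.8, so array 4 was close to the older arrays on this axis. On the second component array 4 was lowest at -17.0 and array 12 was at -10.4. There P23 array 11, at 7.06, lay within the range of the 4-month arrays, 3.29 to 12.1. Correlations of arrays across probe sets were 0.951 to 0.972 within an age (6 pairs) and 0.946 to 0.966 between ages (9 pairs), though probe sets are no independent replicates. A beta-actin control compares signal near the 3' and 5' ends of the transcript as a sign of RNA integrity, and its ratio was 1.21 to 1.28 in the P23 arrays and 1.29 to 1.41 in the older ones, with no overlap. For Gapdh the older arrays were the lower ones, at 0.780 to 0.816 against 0.828 to 0.939. The part of RNA quality in the results below was not tested. Calls that were lost or gained without array 4 are given below for the genes described.

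**Figure D1:**
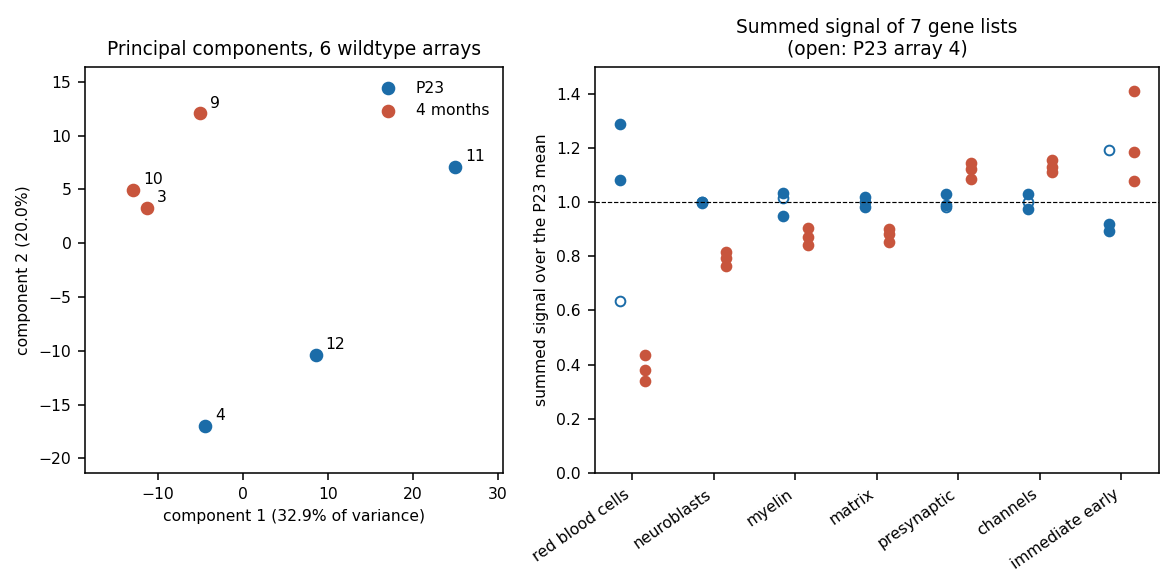
The left panel plots the 6 wildtype arrays on the first 2 principal components, labelled by array number. The right panel plots the summed signal of 7 gene lists in each array over the mean of the P23 arrays (dashed line), blue for P23 and red for 4 months: the summed red cell signal of P23 array 4 (open point) lies between the other P23 arrays and the 4-month arrays, while the 3 neuroblast sums at P23 coincide.

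The comparison asks how expression in the normal bulb changes from the weaning period to adulthood. Of the 7453 probe sets, 29 (0.389 percent) were higher and 47 (0.631 percent) were lower at 4 months (limma, adjusted p under 0.05). By genes, 19 (0.335 percent) rose and 36 (0.636 percent) fell. At an unadjusted p under 0.05, 396 genes (6.99 percent) were higher and 343 (6.06 percent) lower, and the arrays of the ages did not overlap in 495 genes (8.74 percent) that were higher and 468 (8.26 percent) that were lower. Changes were small: the median size among called genes was 1.61-fold for those that fell and 1.50-fold for those that rose. Over 2-fold were 9 probe sets that fell and 3 that rose. The falling set held genes of migrating neuroblasts, myelin, blood and basement membrane. The rising set held Snap25 of the synapse and Gad1 of interneurons, beside the enzymes Ephx1 and Adh7.

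The number of calls rested on single arrays. Of the 76 called probe sets, 6 passed the test in each of the 6 fits that left out 1 wildtype array. In all 76 the arrays of the ages did not overlap, so leaving out 1 array could not turn a direction. These were the probe sets of Mog, Cd24a, Col4a1, Tmsb10 and Dcx and 1 probe set with no symbol. The last of these fell from 62932 ± 1518 (SD, n = 3) to 34685, a log2 change of -0.86 ± 0.08 (SE, adjusted p = 0.000427). Without P23 array 12, 0 probe sets were called higher and 6 lower (limma; 454 higher and 401 lower at an unadjusted p below 0.05). Leaving out P23 array 4 instead gave 56 higher and 63 lower. Of the 55 called genes, 14 of 19 that rose and 29 of 36 that fell passed without array 4. The genes lost without it were Serpinh1 (adjusted p = 0.0626), Nt5dc2 (0.0783), Plxnd1 (0.0548), Slc31a1 (0.0783), Arhgef7 (0.0622), Trp53inp2 (0.0711) and Txn1 (0.0783) among those that fell. Among those that rose they were Septin11 (adjusted p = 0.0581), Gal (0.0582), H2-Q4 (0.0889), Igfbp6 (0.0591) and Rasgrp1 (0.0593). Beside each gene below that lost its call in any such fit, the last p is the highest of the 6, with the array left out, and most of these calls were lost without other arrays too.

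The balance of directions also moved with the settings. Of the called probe sets 61.8 percent were lower as reported, 62.8 percent with quantile scaling, 50.3 percent with array weights and 90.9 percent with the wildtype arrays alone. That last fit called only 1 probe set higher and 10 lower, and 10 of the 76 calls passed in it. Mog (limma, adjusted p = 0.0172), Dcx (0.0265), Col4a1 (0.0265) and Cd24a (0.0376) passed there. Cldn11 (0.0579), Mbp (0.0579), Snap25 (0.0841), Mag (0.0869) and Gad1 (0.172) did not, so most calls depend on the spread shared with the transgenic arrays. Scaling to the spiked bacterial controls moved the median of all tested probe sets from 0.02 to -0.118 and gave 4 probe sets higher and 78 lower, 95.1 percent lower. All changes below are relative to the array medians.

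**Figure D2:**
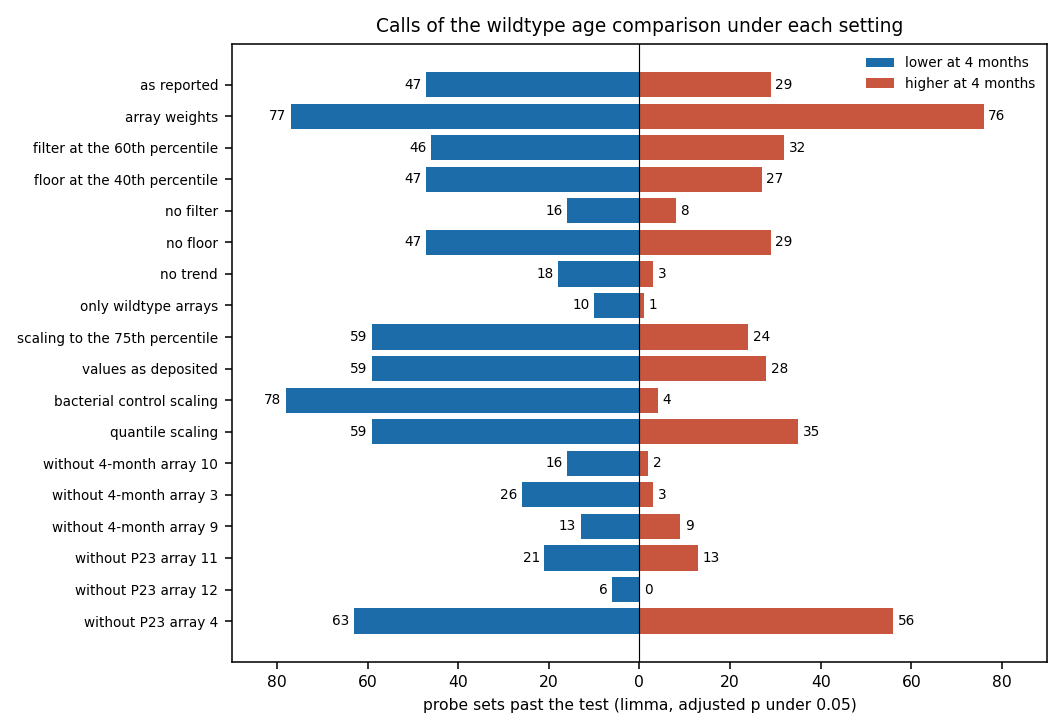
Bars count the probe sets past the test (horizontal axis, limma, adjusted p under 0.05), lower at 4 months to the left and higher to the right, for each setting on the vertical axis. As reported there are 47 lower and 29 higher; the counts run from 6 lower and 0 higher without P23 array 12 to 77 lower and 76 higher with array weights.

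Neuroblast and immature neuron genes were lower in the adult bulb. Of 25 kept genes of this list, 6 fell and 0 rose (limma), 14 were lower and 0 higher at an unadjusted p below 0.05, and the ages did not overlap in the same number, 14. The median log2 change was -0.25 beside 0.02 over all genes. Without P23 array 12, 3 genes of the list passed, and 4 to 7 when any other single wildtype array was left out. The summed signal of the list was 426671 to 428196 at P23 and 326781 to 348818 at 4 months, with no overlap. In whole tissue, fewer cells of a type and less RNA per cell cannot be told apart. Signals below are scaled array signals, listed for P23 arrays 4, 11 and 12 and then for 4-month arrays 3, 9 and 10.

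Dcx, the microtubule-binding protein doublecortin that marks migrating neuroblasts, gave 20780, 21076 and 19094 and then 13341, 11987 and 13262. No adult array came near a P23 array, and Dcx fell 1.58-fold (log2 change -0.66 ± 0.08, SE, adjusted p = 0.00304). Sox11, a transcription factor of newborn neurons, gave 14618, 14937 and 15517 against 9176, 10380 and 8049. All P23 arrays were above all adult arrays, and Sox11 fell 1.64-fold (-0.71 ± 0.10, adjusted p = 0.00595; 0.0505 without P23 array 12). The second Sox11 probe set changed by -0.52 without passing the test (adjusted p = 0.0569).

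Cd24a, a surface glycoprotein dense on neuroblasts, had 11827, 9313 and 9324 at P23 and 5749, 4849 and 5795 at 4 months. Its highest signal was in P23 array 4, the P23 array closest to the adult ones on the first principal component. It fell 1.85-fold (-0.89 ± 0.12, adjusted p = 0.00404). Tmsb10, an actin-binding thymosin of growing neurons, was at 38147, 37767 and 37384 and then 24164, 22875 and 23006. It fell 1.62-fold (-0.69 ± 0.07, adjusted p = 0.000685). Marcksl1, a membrane-linked actin regulator of growing processes, went from 22771, 17779 and 21772 to 13105, 14215 and 14333. The lowest P23 signal, in array 11, was still above every adult array, and the gene fell 1.49-fold (-0.57 ± 0.10, adjusted p = 0.0173; 0.0858 without P23 array 12). Tubb3, the neuron-specific beta-tubulin, fell 1.37-fold (-0.45 ± 0.09, adjusted p = 0.0331), from 60824 to 63440 at P23 down to 40472 to 52820 at 4 months, and its second probe set fell by 0.48 on the log2 scale (adjusted p = 0.0442). Without 4-month array 10 the Tubb3 call was lost (0.155).

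The other members gave smaller or more scattered differences. Igfbpl1, a secreted protein of the migrating stream, stood at 1487 to 1774 and then 693 to 1140 (-0.93 ± 0.28, adjusted p = 0.159). Dpysl3, a growth cone phosphoprotein, was at 2218 to 2289 and 1364 to 1819 (-0.51 ± 0.14, 0.129). The growth cone protein Gap43 (-0.38, adjusted p = 0.138), the tubulin-binding stathmins Stmn1 (-0.23, 0.0863) and Stmn2 (-0.37, 0.165) and Basp1 (-0.21, 0.129) did not overlap between the ages and did not pass. Sox4, a relative of Sox11, was at -0.25 (0.397). Not every gene of the lineage was on the falling side: Dlx1 and Dlx2, factors that set interneuron fate, had changes of -0.05 and 0.04, and Dlx6 had 0.93 with a wide error (0.47, adjusted p = 0.438). Ccnd2, a cyclin of dividing precursors, scattered from 229 to 795 at P23 and from 199 to 963 at 4 months. Proliferation genes had 0 of 27 called (limma, 1 higher and 1 lower at an unadjusted p below 0.05) and a median of 0.08.

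Other falling genes of nerve growth and guidance were Nrep, Efnb2 and Plxnd1, of which only Efnb2 is on a list. Nrep, a small protein of regenerating and developing nerve, was at 28102, 25321 and 22531 and then at 16005, 14219 and 15178. It fell 1.67-fold (-0.74 ± 0.14, adjusted p = 0.0214; 0.0898 without 4-month array 9). Efnb2, an ephrin ligand of axon guidance and vessels, went from 4860 to 5467 at P23 to 2852 to 3308 (-0.71 ± 0.11, adjusted p = 0.0112; 0.0505 without P23 array 12). Plxnd1, a semaphorin receptor of axons and endothelium that was not among the genes set to be named, fell from 1344 to 1732 to 806 to 1060 (-0.68 ± 0.15, 0.0442; 0.157 without 4-month array 3). Of 37 axon guidance and outgrowth genes, 2 fell (Efnb2 and Marcksl1, the latter also on the neuroblast list), 0 rose (limma; 1 higher and 6 lower at an unadjusted p below 0.05), and the median was -0.10. None of this list passed without P23 array 12, and 1 when any single 4-month array was left out. Among 39 genes of the neuronal cytoskeleton 4 fell and 0 rose (limma; 2 higher and 10 lower at an unadjusted p below 0.05): Tmsb10, Tubb3, Tubb5 (-0.43 ± 0.07, adjusted p = 0.017; 0.0858 without P23 array 12) and Tubb2a (-0.36 ± 0.07, 0.0273; 0.143 without 4-month array 10). Tmsb10 and Tubb3 are also on the neuroblast list. Of the cytoskeleton list 1 gene passed without P23 array 11 or 12 or 4-month array 9 or 10. Tubulin genes share long stretches of sequence, so probe sets may read more than 1 of them. A second Tubb5 probe set was at -0.36 (adjusted p = 0.0741), and a much dimmer Tubb2a probe set was at 0.03 (0.966). Neurofilaments of mature axons showed no such fall: Nefh was at 2779 to 3133 and 2635 to 3018 (-0.05 ± 0.14, adjusted p = 0.912), and Nefm changed by 0.10 ± 0.30 (0.916).

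Promoter sequence is shown for 2 of the falling neuroblast genes for comparison of their letters. Whether the 2 genes share a regulator was not tested. The bases are the 250 before the annotated start site of Sox11 (chr12:27342719-27342968, minus strand) and of Marcksl1 (chr4:129513331-129513580, plus strand), from RefSeq on GRCm38.p6, written 5' to 3' along the gene. Capitals mark exact matches, on either strand, to 4 short motifs: ACAAAG (the SOX core), GGGCGG (the GC box), CCAAT (the CCAAT box) and CAGCTG (an E box). In these 2 windows no match overlaps another.
Sox11: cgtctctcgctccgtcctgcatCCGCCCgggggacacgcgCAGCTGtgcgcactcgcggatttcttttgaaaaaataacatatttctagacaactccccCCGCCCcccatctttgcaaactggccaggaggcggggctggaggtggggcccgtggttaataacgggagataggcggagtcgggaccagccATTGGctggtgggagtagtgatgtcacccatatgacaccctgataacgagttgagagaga
Marcksl1: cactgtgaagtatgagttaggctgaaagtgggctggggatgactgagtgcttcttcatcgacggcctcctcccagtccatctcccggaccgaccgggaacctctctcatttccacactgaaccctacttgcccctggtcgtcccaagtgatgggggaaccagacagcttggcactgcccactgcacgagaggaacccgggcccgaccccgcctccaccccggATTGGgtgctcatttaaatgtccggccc
Sox11 holds 2 GC boxes, 1 E box and 1 CCAAT box, the last 60 bases before the start, and Marcksl1 holds 1 CCAAT box, 28 bases before the start. Of all 32851 such windows, 33.8 percent hold a CCAAT box, 32.7 percent a GC box, 16.5 percent a SOX core and 13 percent this E box. A window was found for 30 of the 36 genes that fell, and 18 of them (60 percent) have a CCAAT box, beside 40.5 percent of the 4581 tested genes with a window and 6 of 16 genes that rose. A GC box is in 17 of the 30 (56.7 percent), beside 65.9 percent of tested genes and 8 of the 16. This E box is in 4 of the 30 (13.3 percent), beside 13.5 percent and 2 of the 16. In these shares by gene, a match in any window of a gene counts. A match of this kind is a description of letters and not a binding site.

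**Figure D3:**
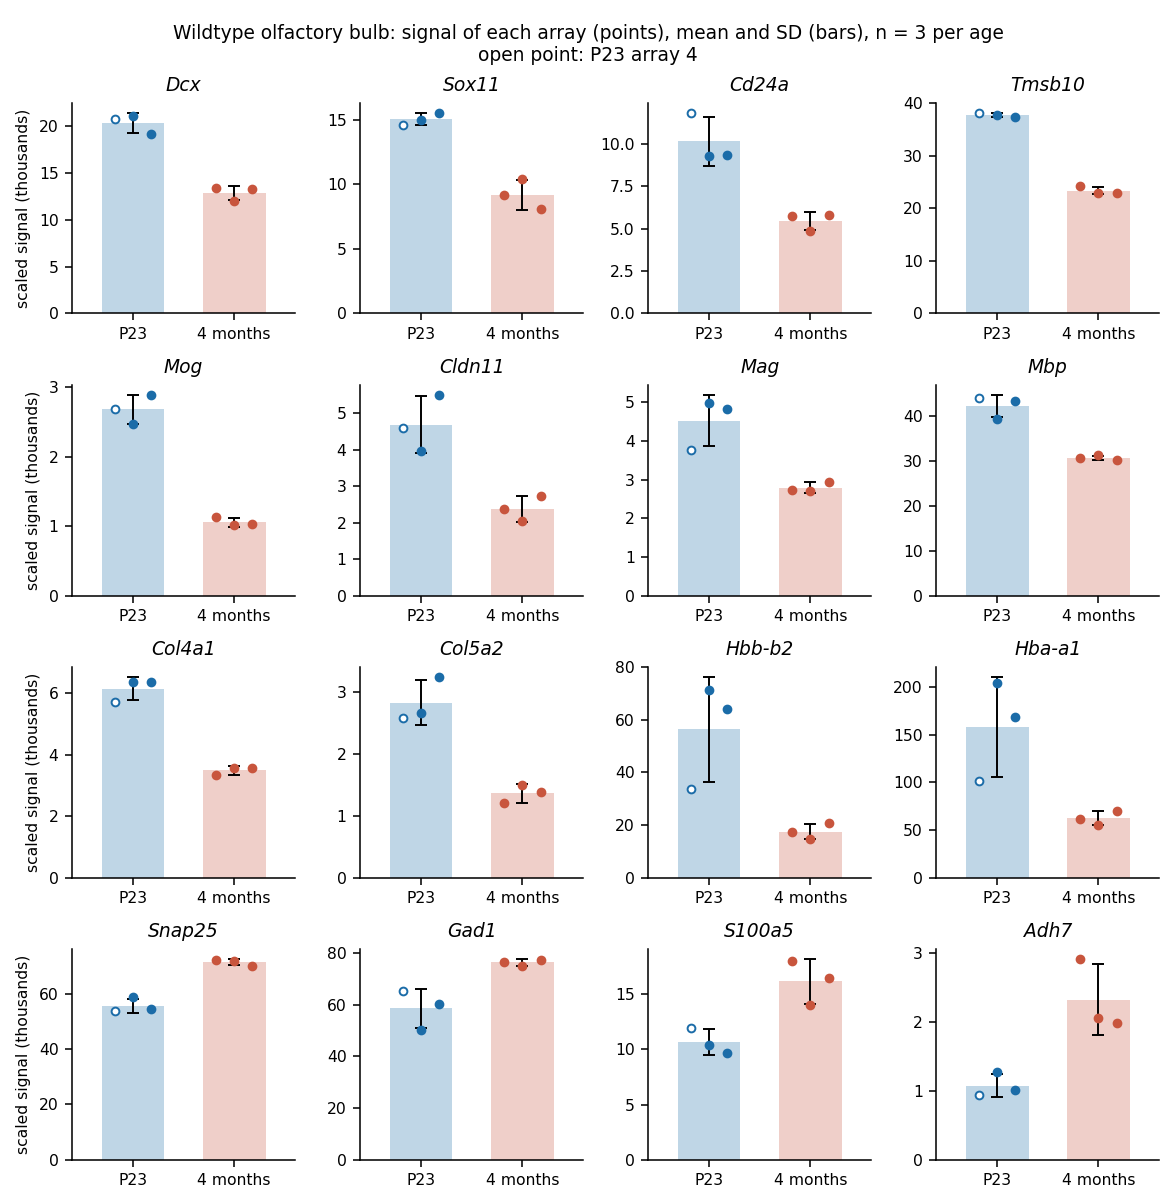
Scaled signal (vertical axes, scaled as labelled, starting at 0) of 16 genes in each wildtype array: points are arrays, bars the mean and lines the SD over 3 arrays, blue for P23 and red for 4 months, with P23 array 4 as an open point. In the first 3 rows all P23 points lie above the 4-month points, for example Tmsb10 at 37384 to 38147 against 22875 to 24164, and in the last row they lie below.

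Myelin genes formed the other large falling group. Of 18 kept oligodendrocyte and myelin genes, 7 fell and 0 rose (limma), with 8 lower and 3 higher at an unadjusted p below 0.05 and a median log2 change of -0.24. Without P23 array 12, 1 of them passed, and 3 without 4-month array 9 or 10. The list's summed signal was 153047 to 166864 at P23 and 135496 to 145581 at 4 months. These are proteins of the sheath and of the cell that makes it. Mog, myelin oligodendrocyte glycoprotein on the outermost lamella, gave 2689, 2467 and 2884 and then 1127, 1013 and 1023. It had the largest fall of any named gene that kept its call without each array in turn, 2.54-fold (-1.34 ± 0.15, adjusted p = 0.000712).

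Cldn11, the claudin of the tight junctions between myelin layers, went from 4602, 3966 and 5507 to 2365, 2033 and 2728. The lowest P23 array was still above the highest adult one, and the gene fell 1.97-fold (-0.98 ± 0.16, adjusted p = 0.0127; 0.0794 without P23 array 12). Mag, the adhesion molecule that faces the axon, had 3772, 4986 and 4827 and then 2731, 2696 and 2946 (-0.69 ± 0.13, adjusted p = 0.0214). Its lowest P23 signal was in array 4, and without that array the change was -0.81 (0.00814), while without P23 array 12 the call was lost (0.107). A dimmer Mag probe set changed by -0.08 (0.918). Mal, a proteolipid that carries lipids to the sheath, fell from 4821 to 5751 down to 2978 to 3706 (-0.72 ± 0.11, adjusted p = 0.01; 0.0704 without P23 array 12). Gsn, the actin-severing protein gelsolin, abundant in oligodendrocytes, fell from 8875, 9199 and 9376 to 6666, 5656 and 5430 (-0.63 ± 0.09, adjusted p = 0.00713; 0.0505 without P23 array 12).

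Of the 7 genes, Mbp and Mobp fell least. Mbp, myelin basic protein, gave 43900, 39399 and 43339 and then 30564, 31220 and 30158, a 1.38-fold fall (-0.46 ± 0.08, adjusted p = 0.0205; 0.0903 without P23 array 12). Another Mbp probe set, far dimmer at 2476 and 2936, was higher by 0.25 at 4 months and did not pass (0.466), so the 2 probe sets differ in direction. Mobp, a small basic protein of compact myelin, was read by 4 probe sets that all pointed down, at -0.42 (adjusted p = 0.0214), -0.68 (0.0214), -0.48 (0.175) and -0.44 (0.211). Without P23 array 12 the first had an adjusted p of 0.0958. Ugt8a, which makes the galactolipid of myelin, stood at 1576 to 2071 and 550 to 1268 and did not pass (-1.16 ± 0.29, adjusted p = 0.0865).

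Some members of the list were on the other side. Apod, apolipoprotein D of mature oligodendrocytes, was at 12707 to 16342 and 16062 to 18493 (0.27 ± 0.13, adjusted p = 0.389), Car2, a carbonic anhydrase, at 0.23 (0.22) and Septin4, a septin of the sheath, at 0.33 (0.133). Sox10, the lineage factor, was at -0.10. By their brightest probe sets, all 8 kept oligodendrocyte precursor genes had negative changes, from -0.35 to -0.10 with a median of -0.27. None passed (limma; 3 lower and 0 higher at an unadjusted p below 0.05). Pdgfra, the growth factor receptor of precursors, gave 6919, 6417 and 5304 against 4503, 5186 and 4843 (-0.35 ± 0.12, adjusted p = 0.211). A dimmer Pdgfra probe set was at 0.04 (0.968). Ptprz1, also on this list, had dimmer probe sets at -0.26 (0.354) and 0.14 (0.876). Cholesterol synthesis, which supplies the membrane, had 0 of 16 called (3 lower and 0 higher at an unadjusted p below 0.05) and a median of -0.18.

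Upstream sequence of 3 myelin genes that fell is shown for comparison of their letters, with the same motifs in capitals: Mog (chr17:37023399-37023648, minus strand), Mag (chr7:30914923-30915172, minus strand) and Mobp (chr9:120149492-120149741, plus strand), 250 bases before the start site, RefSeq on GRCm38.p6.
Mog: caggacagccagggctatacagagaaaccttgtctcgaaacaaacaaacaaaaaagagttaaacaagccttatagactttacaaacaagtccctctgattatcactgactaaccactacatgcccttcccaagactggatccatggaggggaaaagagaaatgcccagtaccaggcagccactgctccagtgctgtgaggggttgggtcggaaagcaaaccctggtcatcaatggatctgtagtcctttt
Mag: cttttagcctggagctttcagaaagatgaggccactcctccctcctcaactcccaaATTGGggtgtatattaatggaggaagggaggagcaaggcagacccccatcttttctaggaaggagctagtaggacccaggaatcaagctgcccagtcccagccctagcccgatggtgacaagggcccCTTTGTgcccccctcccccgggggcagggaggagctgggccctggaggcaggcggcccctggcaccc
Mobp: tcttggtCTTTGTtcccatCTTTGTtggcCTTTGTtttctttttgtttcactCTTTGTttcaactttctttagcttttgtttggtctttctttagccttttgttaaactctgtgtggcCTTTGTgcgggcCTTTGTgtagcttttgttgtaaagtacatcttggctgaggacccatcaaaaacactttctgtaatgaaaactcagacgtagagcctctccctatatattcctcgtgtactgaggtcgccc
The Mobp window holds 6 copies of the SOX core, all as its reverse complement CTTTGT, between 120 and 243 bases before the start. Of the 32851 windows, 1 holds 6 or more, and it is this window. The count of 6 was taken from the window itself, so nothing is read from that rarity. Mag holds 1 SOX core, 67 bases before the start, and 1 CCAAT box, and Mog holds none of the 4 motifs in this window. A SOX core was present in 8 of the 30 falling genes with a window (26.7 percent), 2 of 16 rising genes (12.5 percent) and 14.5 percent of all tested genes.

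Col4a1, Col5a2 and Serpinh1, genes of collagen and its folding, fell. Of 34 genes of basement membrane and fibrillar matrix 3 fell, 0 rose (limma; 8 lower and 1 higher at an unadjusted p below 0.05), and the median was -0.16. Without P23 array 12, 1 of the list passed. Col4a1, a chain of the type IV collagen that forms the sheet of every basement membrane, gave 5717, 6356 and 6383 and then 3330, 3581 and 3554. It fell 1.76-fold (-0.82 ± 0.11, adjusted p = 0.00404). Its partner chain Col4a2 was at 4983 to 5387 and 3619 to 4747 and did not pass (-0.33 ± 0.13, 0.317). Col5a2, a fibrillar collagen chain of connective tissue, went from 2581, 2658 and 3247 to 1201, 1503 and 1382, a 2.08-fold fall (-1.05 ± 0.16, adjusted p = 0.00713; 0.0505 without P23 array 12). Serpinh1, the collagen chaperone of the endoplasmic reticulum, fell from 2472 to 3424 down to 1357 to 2077 (-0.85 ± 0.17, 0.029; 0.124 without P23 array 12).

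Col3a1 had the largest difference of the collagens, at 865, 1055 and 1275 and then 572, 442 and 129, but did not pass (-1.49 ± 0.36, adjusted p = 0.0682), and the last of these values lies below the floor of 209. Col1a1, at 2862 to 5764 and 2640 to 3688, overlapped (-0.46, 0.43). Tnc, a matrix protein of growing brain, was at -0.75 (0.157), and Igf2, a growth factor made by the meninges and vessels, at -0.55 (0.0729). Igf2 was lowest of the P23 arrays in array 4, and without that array it passed (-0.73, 0.00647). Markers of endothelial and mural cells had 0 of 19 called (limma; 3 lower and 1 higher at an unadjusted p below 0.05), a median of -0.19 and sums of 50995 to 58840 and 46652 to 50756. Of 30 meningeal and fibroblast genes 2 fell and 0 rose (Col5a2 and Serpinh1, both also on the matrix list; limma), with 7 lower and 1 higher at an unadjusted p below 0.05 and 21 negative changes. Their sums overlapped between the ages (200180 to 244591 and 191642 to 236826). The part of meningeal tissue left on the bulb was not tested.

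Of the called genes with a symbol, the red cell gene Hbb-b2 fell most. Hbb-b2, a beta-globin, gave 33775, 71223 and 64048 and then 17316, 14620 and 20580, a 3.09-fold fall (-1.63 ± 0.28, adjusted p = 0.0142). Hba-a1, an alpha-globin, gave 101114, 204812 and 168518 and then 61452, 55601 and 70293 (-1.29 ± 0.21, adjusted p = 0.0127). P23 array 4 lay between the adult arrays and the other P23 arrays for both genes. Without it the changes were -1.96 for Hbb-b2 (adjusted p = 0.00299) and -1.58 for Hba-a1 (0.00146). Without P23 array 12 neither Hbb-b2 (0.0858) nor Hba-a1 (0.077) passed. Hba-a1 was also lost without 4-month array 9, and Hbb-b2 without that array, 4-month array 3 or P23 array 11. Alas2, the red cell enzyme of heme synthesis, ranged from 1724 to 6762 at P23 and from 1254 to 1556 at 4 months (-1.37 ± 0.38, 0.128). Globin copies are nearly identical, so each probe set may read several of them.

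All 5 kept red cell genes were lower, 2 of them past the test, with a median of -1.29 and summed signals of 142464 to 289472 and 76347 to 98134. These libraries hold blood, and its part in the other falling groups was not tested. Among the 36 genes that fell, P23 array 4, which had the lowest globin signals of its age, was the P23 array nearest to the 4-month values in 14, and arrays 11 and 12 were in 11 each. Among the 19 that rose, array 4 was nearest in 13, array 11 in 4 and array 12 in 2. The same counts over all tested genes are not given, so no excess is read from them. Array 4 was also the P23 array nearest to the 4-month arrays on the first principal component. What these counts owe to blood was not tested. Sprr1b, a cornified envelope protein of surface epithelia, was at 34330, 58423 and 47687 and then 23212, 28564 and 27594 (-0.80 ± 0.17, adjusted p = 0.0459; 0.171 without 4-month array 3).

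Further genes fell. Ppic, a cyclophilin of the secretory pathway, went from 1242, 1326 and 1341 to 470, 618 and 670 (-1.17 ± 0.24, adjusted p = 0.0359; 0.14 without 4-month array 3). Crybg1, a crystallin-like protein, went from 2248 to 2523 down to 1039 to 1353 (-0.93 ± 0.18, 0.0279; 0.124 without 4-month array 3). Serf1 fell by 0.94 (0.0214; 0.0914 without P23 array 12) and Nt5dc2 fell by 0.76 (0.0387; 0.158 without 4-month array 10). Oxct1, the enzyme by which brain burns ketone bodies, a fuel of the suckling period, stood at 10948 to 12177 and 8001 to 8461 (-0.49 ± 0.10, adjusted p = 0.0327; 0.125 without 4-month array 10). Rplp0, a stalk protein of the ribosome often taken as a reference gene, gave 46663, 49578 and 45999 and then 37512, 34874 and 37641 (-0.37 ± 0.06, adjusted p = 0.0131; 0.0698 without 4-month array 9). By brightest probe sets it was the 1 called gene of 23 ribosomal proteins, whose median was 0.05. A dimmer probe set of Rpl19, another ribosomal protein, had the largest rise of all called probe sets. It went from a mean of 413 to 1405 (1.85 ± 0.38, adjusted p = 0.0341; at most 0.118 with 1 array left out). Txn1, the redox protein thioredoxin, fell by 0.36 (0.0442; 0.143 without 4-month array 10).

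**Figure D4:**
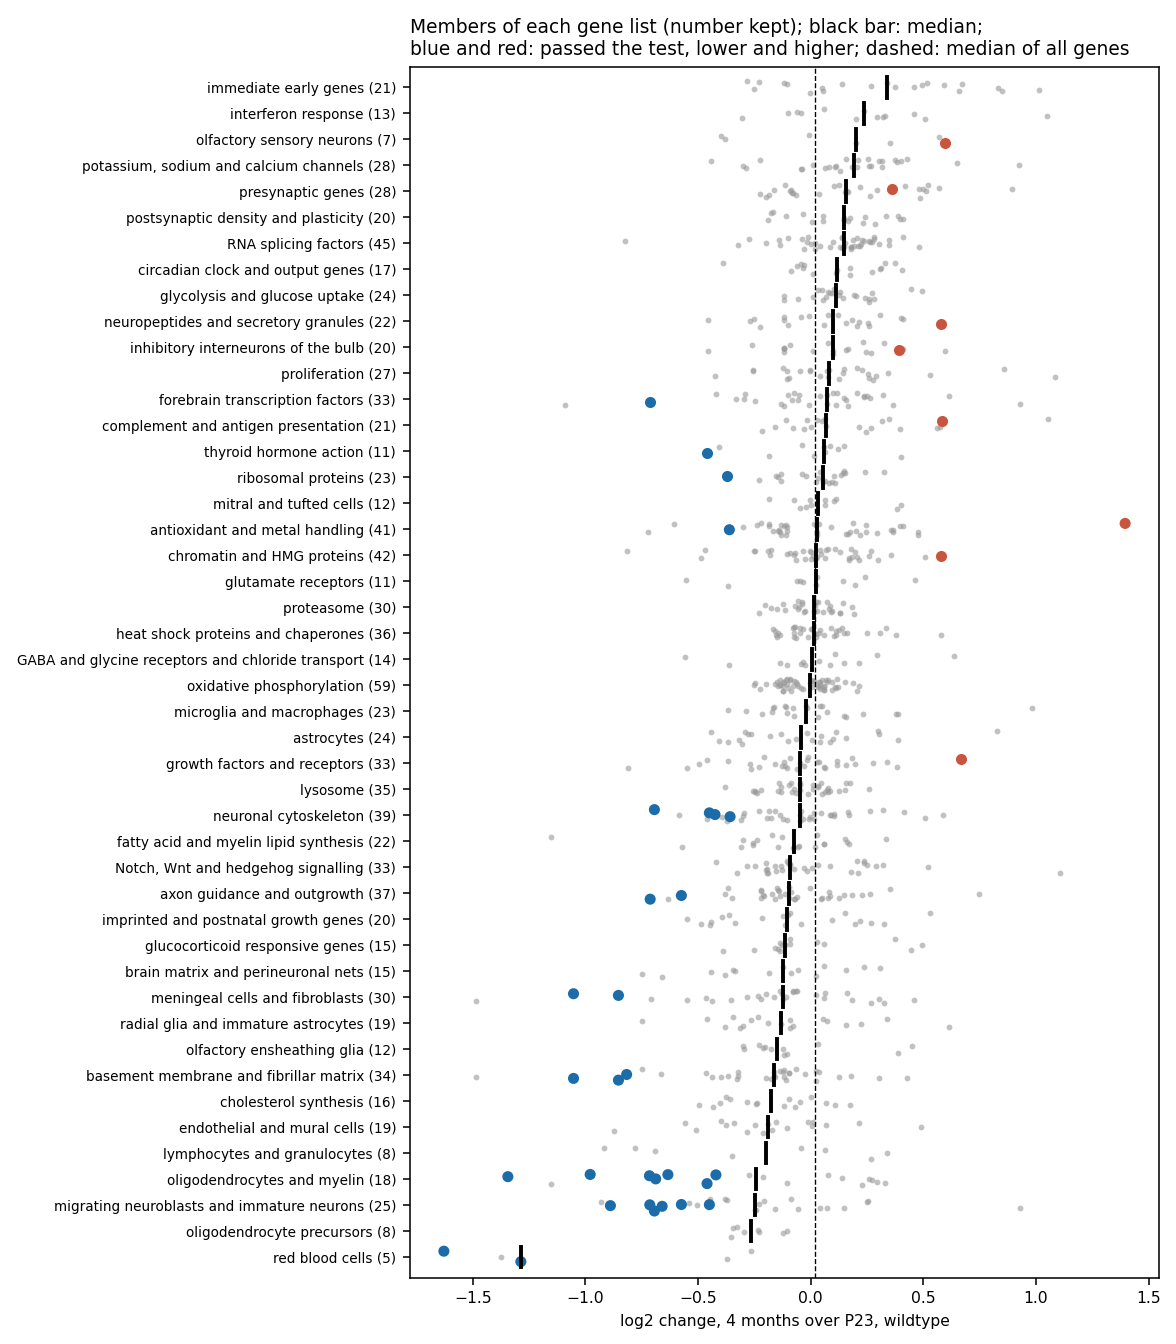
Each point is the log2 change from P23 to 4 months (horizontal axis) of 1 kept gene of a list, with the number of kept genes beside the list's name; black bars are list medians and the dashed line is the median of all genes, 0.02. Coloured points passed the test (blue lower, red higher). Blue points lie, among other lists, in red cells, neuroblasts, myelin and matrix, with medians of -1.29, -0.25, -0.24 and -0.16. The neuronal cytoskeleton list has 4 blue points at a median of -0.05, and oligodendrocyte precursors have 0 at -0.27.

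Snap25 and Gad1, genes of mature neurons, were higher at 4 months. Snap25, a core protein of vesicle fusion at the synapse, gave 53901, 58690 and 54372 and then 72311, 71856 and 70157. The arrays of each age lay close together, and Snap25 rose 1.28-fold (0.36 ± 0.06, adjusted p = 0.0137; 0.0794 without P23 array 12). Gad1, which makes the transmitter GABA in the bulb's interneurons, gave 65122, 50186 and 60236 and then 76624, 74918 and 77411. It rose 1.31-fold (0.39 ± 0.08, adjusted p = 0.0442; 0.184 without 4-month array 10). Snap25 was the 1 called gene of 28 presynaptic genes, of which 8 had a higher and 0 a lower signal at an unadjusted p below 0.05. The list's median of 0.16 came to 0.01 with scaling to the bacterial controls.

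Other synaptic members are given as values because they did not pass. Vamp2, the vesicle partner of Snap25, was at 41736 to 44464 and 50445 to 53499 (0.27 ± 0.06, adjusted p = 0.0682). Napb, which recycles the fusion complex, was at 0.51 (0.0597) and the calcium sensor Syt1 at 0.52 (0.177). Gad2, the second GABA-making enzyme, was at 1886 to 2641 and 2906 to 3808 (0.59 ± 0.18, 0.173), and Penk, the opioid peptide precursor of granule cells, at 30004 to 33586 and 40416 to 44033 (0.41 ± 0.09, 0.0546). Without P23 array 4, Napb (0.0413) and Penk (0.0462) passed. Of 20 inhibitory interneuron genes 1 rose (Gad1; 4 higher and 0 lower at an unadjusted p below 0.05). The list's median was 0.10, and -0.04 with scaling to the bacterial controls. Calb1 (0.32 ± 0.25, adjusted p = 0.64) and Pvalb (0.24 ± 0.11, 0.384) mark other interneuron types and did not pass. Mitral and tufted cell genes had 0 of 12 called (limma; 1 higher and 1 lower at an unadjusted p below 0.05) and a median of 0.03.

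Ion channels had a positive median, receptors had medians close to the 0.02 of all genes, and none of these genes was called. Of 28 potassium, sodium and calcium channel genes 0 passed (limma; 7 higher and 1 lower at an unadjusted p below 0.05), 22 had positive changes and the median was 0.19. The share of positive changes over all genes is not given, so no excess is read from the 22. Kcnab2, a beta subunit of potassium channels, was at 5495 to 5998 and 7791 to 7906 (0.43 ± 0.10, adjusted p = 0.0565), and Kcna1, a channel of axons beside the nodes, at 0.16 (0.62). Glutamate receptors (0 of 11 called, median 0.02) and GABA and glycine receptors (0 of 14, median 0.01) were spread around 0, with 2 higher and 0 lower and 1 higher and 1 lower at an unadjusted p below 0.05. Gabra2, a GABA receptor subunit, was at 0.11 (0.864), and Slc12a5, the chloride exporter whose rise makes GABA inhibitory, at 0.08 (0.9). Nrgn, a postsynaptic calmodulin store, was at 0.15 (0.901). Postsynaptic genes had 0 of 20 called, 5 higher and 1 lower at an unadjusted p below 0.05 and a median of 0.15.

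Of 7 olfactory sensory neuron genes, 4 had positive and 3 negative changes, and 1 rose. S100a5, a calcium-binding protein of olfactory sensory neurons, gave 11962, 10398 and 9700 and then 18038, 14010 and 16469. It rose 1.51-fold (0.60 ± 0.10, adjusted p = 0.0137; 0.0858 without P23 array 12). Omp gave 5859, 6967 and 4604 and then 10236, 7964 and 7561, above every P23 array, without passing (0.57 ± 0.17, adjusted p = 0.146). The list had 2 genes higher and 2 lower at an unadjusted p below 0.05, and Ebf3, a factor of these neurons, was at -0.40 (adjusted p = 0.356). Olfactory ensheathing glia, which wrap the incoming axons, had 0 of 12 called (limma; 1 higher and 1 lower at an unadjusted p below 0.05), a median of -0.15 and sums of 106357 to 115501 and 89456 to 103861.

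The neuropeptide galanin, Gal, rose from 3085, 2911 and 3020 to 4738, 4357 and 4366 (0.58 ± 0.13, adjusted p = 0.0456; 0.16 without 4-month array 3). Its dimmer probe set was at 0.23 (0.798). Rasgrp1, an activator of Ras in granule cells and lymphocytes, rose from 2797, 2238 and 3318 to 5448, 4192 and 4592 (0.78 ± 0.17, 0.0442; 0.16 without 4-month array 3). Map2k1, the kinase MEK1 further down the same cascade, rose from 12844 to 16016 up to 20137 to 25144 (0.65 ± 0.12, adjusted p = 0.0178; 0.0888 without 4-month array 3).

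Immediate early genes, which neurons switch on with activity, had the highest list median of all lists described, 0.34. None of 21 passed (limma; 5 higher and 0 lower at an unadjusted p below 0.05), and P23 array 4 was the highest P23 array for several. Fos gave 18573, 7485 and 9356 and then 21243, 13098 and 13660 (0.52 ± 0.34, adjusted p = 0.55). Egr1 gave 14601, 8573 and 9665 and then 23920, 16685 and 17063 (0.83 ± 0.20, 0.0743), and passed without P23 array 4 (1.06, 0.0171), as did Junb (1.40, 0.0163) and Nr4a1 (1.18, 0.0428). These transcripts respond within minutes, and how the animals were handled before dissection is not described in the labels.

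Several enzymes and nuclear proteins rose. Ephx1, the microsomal epoxide hydrolase of detoxification, rose 2.63-fold from 458, 273 and 287 to 1006, 488 and 1331 (1.40 ± 0.30, adjusted p = 0.0459; 0.209 without 4-month array 10). Adh7, the alcohol dehydrogenase that also oxidises retinol, rose 2.14-fold from 940, 1266 and 1016 to 2910, 2058 and 1983 (1.10 ± 0.17, adjusted p = 0.00899; 0.0505 without P23 array 12). Pa2g4, a growth regulator of the nucleolus, rose 1.92-fold (0.94 ± 0.19, 0.0383; 0.132 without P23 array 12), Igfbp6, which binds insulin-like growth factors, by 0.67 (0.0467; 0.212 without 4-month array 10) and Smc3, a ring subunit of cohesin, by 0.58 (0.0273; 0.143 without 4-month array 10). Gdpd3, a lysophospholipase, rose from 8508 to 9228 up to 11975 to 12896 (0.52 ± 0.09, adjusted p = 0.0127; 0.077 without P23 array 12), and the chaperone subunit Pfdn2 by 0.54 (0.0173; 0.0903 without P23 array 12).

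Septin11, a septin of the cytoskeleton, rose from 3395 to 3591 up to 4605 to 4864 (0.42 ± 0.09, adjusted p = 0.0474; 0.17 without P23 array 12), and Rnf227 by 0.45 (0.0214; 0.105 without P23 array 12). Rragd, a GTPase that signals amino acid supply, rose by 0.49 (0.0442; 0.171 without P23 array 12). Hnrnpul2, a nuclear RNA-binding protein, rose by 0.64 (adjusted p = 0.0442; 0.186 without 4-month array 10), and its second probe set was at 0.32 (0.458). The transcript 4933434E20Rik rose by 0.69 (0.0459; 0.179 without 4-month array 10), with 0.11 (0.85) in its other probe set. H2-Q4, a class I histocompatibility molecule, rose from 1739, 2182 and 2114 to 3037, 2696 and 3277 (0.58 ± 0.13, 0.0465; 0.221 without 4-month array 10). It was the 1 called gene of 21 of complement and antigen presentation (6 higher and 0 lower at an unadjusted p below 0.05, median 0.07). Class I genes are alike in sequence, so probe sets may read several: 1 H2-D1 probe set rose (0.48 ± 0.11, 0.0466; at most 0.194 with 1 array left out), and the brightest of the 3 kept was at 0.27 (0.201). B2m, the light chain these molecules share, gave 5665, 2173 and 2842 and then 7007, 5620 and 7940. Array 4 alone overlapped the adult arrays, and without it B2m rose (1.45, adjusted p = 0.0025), while with it the value was 1.05 ± 0.26 (0.0794).

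No glial marker outside the myelin list passed the test. Gfap, the astrocyte intermediate filament, was at 5683 to 8355 and 5454 to 6710 (-0.27 ± 0.15, adjusted p = 0.478), and Aqp4, the water channel of astrocyte endfeet, at 16710 to 18285 and 14870 to 16065 (-0.18 ± 0.09, 0.439). Fabp7, a fatty acid carrier of radial and ensheathing glia, was at -0.30 (0.177). Astrocyte genes had 0 of 24 called (limma; 2 higher and 5 lower at an unadjusted p below 0.05) and a median of -0.04. Microglia and macrophage genes had 0 of 23 called (1 higher and 0 lower at an unadjusted p below 0.05) and a median of -0.02, with C1qa, a subunit of complement C1q, at 5723 to 7376 and 5349 to 6424 (-0.08, adjusted p = 0.808). For energy metabolism, 0 of 59 oxidative phosphorylation genes were called (0 higher and 3 lower at an unadjusted p below 0.05), with 29 positive and 30 negative changes.

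At the detection floor, 2 probe sets outside the tested set switched. Mdfi, an inhibitor of myogenic factors, was at the floor of 209 in all P23 arrays and at 746 to 861 at 4 months, at least 3.77-fold higher. Ifna15, an interferon alpha gene, was at the floor in all 4-month arrays and at 422 to 694 at P23, at least 2.50-fold lower in the adult. Neither was tested, and both folds are against the floor.

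The transgenic arrays give the age change of the same genes in the other genotype. Of the 36 genes that fell, 27 also had a negative change from P23 to 4 months in transgenic bulb, 18 of them past the test. For the 19 that rose the counts, with positive changes, were 9 and 5. The same counts over all 5664 genes are not given, so no excess is read from them. The age change differed between the genotypes in 14 of the genes that fell and 10 of those that rose (limma interaction, adjusted p under 0.05), beside 415 of 5664 genes in all (7.33 percent). Nothing is read from that share, since the 55 were chosen on the wildtype change that enters the difference. Cd24a (-0.89 in wildtype, -0.90 in transgenic), Tmsb10 (-0.69 and -0.70), Mbp (-0.46 and -0.49), Mobp (-0.42 and -0.44), Marcksl1 (-0.57 and -0.65) and Serf1 (-0.94 and -0.89) changed by nearly the same amount, with interaction p from 0.804 to 0.988.

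Among the genes that differed, 3 fell further in transgenic bulb: Dcx (-1.73 against -0.66; adjusted p of the difference = 7.94e-05), Sox11 (-1.56 against -0.71; 0.00289) and Nrep (-1.83 against -0.74; 0.0038). Myelin and matrix genes differed in the other direction. Mag was at 0.33 in transgenic bulb against -0.69 (0.00401), Cldn11 at -0.02 against -0.98 (0.0202), Mal at -0.11 against -0.72 (0.0316) and Gsn at 0.58 against -0.63 (7.12e-05). Col5a2 rose in transgenic bulb by 1.76 ± 0.16 and fell in wildtype by 1.05 (3.73e-06), and Col4a1 rose by 0.38 against a fall of 0.82 (0.000301). Mog fell in both, by 0.76 and by 1.34, and that difference did not pass (0.113).

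All 10 rising genes that differed had negative changes in transgenic bulb, and 2 of them, Rragd and Hnrnpul2, fell there past the test. Snap25 was at 0.36 and -0.18 (adjusted p of the difference = 0.00175), Gad1 at 0.39 and -0.21 (0.00713), Rragd at 0.49 and -0.51 (0.00111) and Hnrnpul2 at 0.64 and -0.58 (0.00153). S100a5 rose in both, by 0.60 and 0.73 (0.626). Microglial markers moved with genotype as well: the median log2 change of the 23 microglia and macrophage genes was 1.52 in transgenic and -0.02 in wildtype bulb, and the part of that shift in the differences above was not tested.

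**Figure D5:**
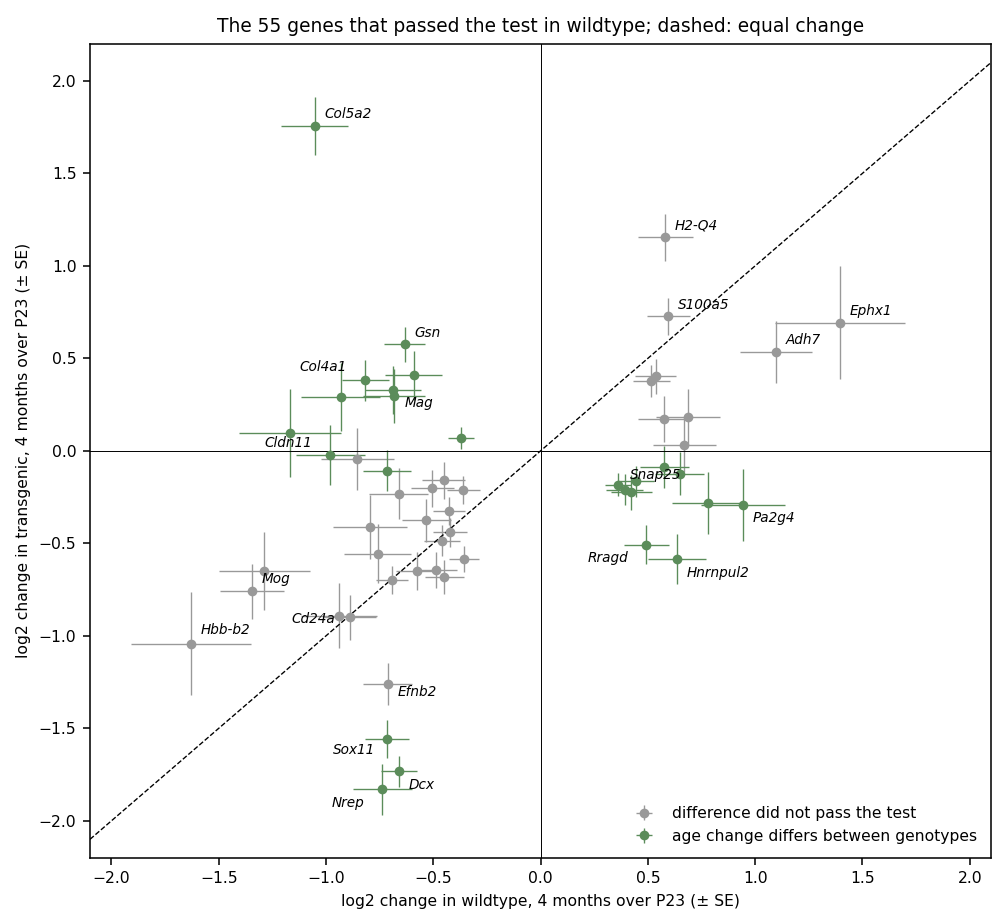
Each of the 55 genes that passed the test in wildtype is plotted by its log2 change from P23 to 4 months in wildtype (horizontal) and in transgenic bulb (vertical), with SE bars; the dashed line marks equal change, and green points differ between genotypes. Cd24a lies on the line, Dcx (-0.66, -1.73) below it, and Col5a2 (-1.05, 1.76) farthest above.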

How the data were processed

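Expression was measured in total RNA of whole olfactory bulb on 12 single-colour arrays, 3 in each of 4 groups. The authors deposited linear intensities per probe set; a mean over each array without the lowest and highest 2 percent of values is 2501 on all arrays, so the deposited intensities had been scaled. The steps behind them are not stated in the labels. Before further steps, array medians differed by at most 1.11-fold.

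Each array was scaled to the median of the array medians, signals below the 20th percentile (209) were raised to it, log2 was taken, and probe sets with a mean log2 over the 40th percentile (9.43) were kept. Controls were left out. limma 3.58.1 in R 4.3.3 fitted 1 mean per group over all 12 arrays (8 residual degrees of freedom, variance trend), two-sided, with Benjamini-Hochberg adjustment over all 7453 probe sets and a threshold of 0.05. The number of arrays limits the precision. A gene stands for its brightest probe set, and 10833 probe sets carry 1 symbol, 396 several and 1193 none. Signals of different probe sets are not comparable as levels. A value after ± beside a log2 change is its SE, and a p in brackets without a name is the adjusted p from limma. Median log2 changes of lists are over kept members. Counts of positive and negative changes in lists stand without the share over all genes, so no excess is read from them. No pair of arrays shared more than 7 equal values.

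Named were 50 preset genes (41 kept), the largest called changes in each direction, leading list members and genes whose age change differed between genotypes. Members and lists were chosen with earlier results of these data known. Called genes and genes without a call that lie outside that rule (Plxnd1, Oxct1, Septin11 and Rnf227 among them) were chosen after their values were seen. The fit was tested on simulated data. Alternatives were other scalings, floors, filters, moderation, array weights and leaving out each array. Promoter windows are from RefSeq. Python 3.11.15 with matplotlib 3.10.9 drew the figures.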

Additional observations from a re-analysis of the deposited data

Results flagged for a closer look

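The change from P23 to 4 months differed between the genotypes for 20 of the named genes that had passed the test in wildtype bulb (limma, interaction term, adjusted p under 0.05). Values are the log2 age change in transgenic bulb minus that in wildtype bulb. It was below 0 for Pa2g4 (-1.24), Hnrnpul2 (-1.22), Nrep (-1.09), Dcx (-1.07), Rasgrp1 (-1.06), Rragd (-1.001), Sox11 (-0.84), Map2k1 (-0.77), Smc3 (-0.66), Gad1 (-0.60) and Snap25 (-0.54). It was above 0 for Rplp0 (0.44), Mal (0.61), Cldn11 (0.96), Mag (1.02), Col4a1 (1.20), Gsn (1.21), Crybg1 (1.22), Ppic (1.26) and Col5a2 (2.81). These genes were chosen for their change in wildtype bulb, and that change enters the difference.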

How the results depend on the processing

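As reported, 29 probe sets were higher and 47 lower at 4 months, and 544 differed in their age change between genotypes. Array weights gave 76 higher and 77 lower, no filter on dim probe sets 8 and 16, no variance trend 3 and 18, the 6 wildtype arrays alone 1 and 10, and scaling to the bacterial controls 4 and 78, with 1476 genotype differences. Leaving out 1 array gave 0 to 56 higher, 6 to 63 lower and 374 to 743 genotype differences. Quantile scaling (35 and 59), the values as deposited (28 and 59), the 75th percentile (24 and 59), no floor (29 and 47), the 40th percentile floor (27 and 47) and the 60th percentile filter (32 and 46) stayed within 1.5 times. Percentages of lower calls were 61.8 as reported, 85.7 without the trend, 90.9 with wildtype arrays alone and 95.1 with the bacterial controls. The cause of these shifts was not tested. Among named genes called in wildtype, other probe sets of 2 pointed the other way: Mbp at 0.25 and Tubb2a at 0.034, neither past the test. No paired analysis was possible because the groups compared share no replicate numbers.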

Other observations

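Of 45 RNA splicing factors, 34 had positive and 11 negative log2 changes from P23 to 4 months, with 0 called by limma (5 higher and 2 lower at an unadjusted p below 0.05) and a median of 0.15, which was 0.0040 with scaling to the bacterial controls. Of 24 genes of glycolysis and glucose uptake, 21 were positive and 3 negative, with 0 called by limma (4 higher and 0 lower at an unadjusted p below 0.05) and a median of 0.11, which was -0.03 with that scaling. Their summed signal was 369636 to 371735 at P23 and 388992 to 416134 at 4 months. Of all 5664 genes, 6.99 percent were higher and 6.06 percent lower at an unadjusted p below 0.05 (limma). The share of positive changes over all genes is not given, so no excess is read from these counts.

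Ezh1 and Ezh2, alternative enzymes of the same histone methylating complex, had opposite signs and were picked after their values were seen. Ezh1 was at 0.51 ± 0.13 (SE, limma adjusted p = 0.0895) and Ezh2 at -0.49 ± 0.16 (adjusted p = 0.211), so neither passed.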
